A study of Mus musculus with 5 samples.

Results

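The genes described here are 37 members of the hypoxia response and of glycolysis, chosen by name for that function out of 12579 genes that the tables of both genotypes share. All 37 were found in both tables. They were followed in droplet-based libraries of single cells, prepared from advanced tumours of the pancreas of mice labelled KPPC (3 libraries) and KPPCN (2 libraries), aged 7 to 8 weeks. The assay tags each captured transcript near its 3′ end with a unique molecular identifier (UMI), so a UMI count is a count of captured molecules. Dead cells and CD45-positive blood cells were depleted with beads before about 6000 cells per library were loaded.

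Both genotypes share, among other alleles, the loss of both copies of Trp53, switched by the Pdx1-Cre driver, which is active in the pancreatic epithelial lineage; KPPCN mice lack Nsdhl, an enzyme of cholesterol synthesis, as well. These alleles are background knowledge of the model, since the labels give the abbreviations and not the alleles. Fibroblasts, vessels and blood cells lie outside the lineage in which this Cre is active, so their alleles are taken to be intact in both genotypes. Cell names mark the libraries of KPPCN by the numbers 1 and 2 and those of KPPC by C3, D3 and H2, codes that match no numbered sample; each was taken as 1 tumour. Nsdhl itself was counted at 31.6, 23.8 and 29.2 CPM in KPPC and 40.4 and 33.1 in KPPCN in epithelial-like cells, and was no lower there in KPPCN; which exons are deleted is not given in the sources used here, and these 3′ counts therefore did not check the labels, and KPPC and KPPCN mean below the libraries so labelled. In every sentence below, values run in the order KPPC C3, D3, H2, then KPPCN 1 and 2. CPM is UMIs per 1000000 UMIs of the same cells, and capture at the 3′ end can differ between genes, so levels are compared within a gene and not between genes. Gapdh, Pgk1, Ldha, Eno1, Pkm, Tpi1, Aldoa and Pgam1 have processed pseudogenes, so the counting of their reads is less certain.

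Cells adapt to low oxygen through hypoxia-inducible factor (HIF), a pair of proteins whose alpha subunit, such as the one encoded by Hif1a, is hydroxylated by oxygen-dependent enzymes (Egln1, Egln3) and then destroyed. When oxygen is short, the alpha subunit lasts and the pair binds the DNA core RCGTG near genes for glucose uptake, glycolysis, lactate export, collagen hydroxylation and mitochondrial clearance. Pancreatic carcinoma is known as a poorly perfused tumour rich in fibroblasts and matrix, and glycolysis also runs in cells that have oxygen.

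The libraries differed in depth and content. Median depth was 17308.5 to 18992 UMIs per cell in KPPC and 21789 in KPPCN 2, against 2216.5 in KPPCN 1, which held 5318 of the 16810 cells used and most of the lymphocytes. Libraries shared 0 to 6 cell barcodes per pair. Of 5 blood cell markers listed for carry-over, the 3 among the shared genes (Hbb-bs, Cd74, Lyz2) summed to 14.4 to 92.5 CPM in KPPC epithelial-like cells, 2388 CPM in KPPCN 1 and 61.2 CPM in KPPCN 2. In KPPCN 1 that sum was mostly haemoglobin (Hbb-bs, 2273 CPM). The part of these markers in the results below was not tested.

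Because the deposited cells carry no names, cells were clustered without the 37 members and 50 further pathway genes, and clusters were named from marker genes. Unnamed clusters 6, 7 and 19 had both Cdkn2a and Hmga2 among their leading genes and are called Cdkn2a/Hmga2-high; a cell cycle inhibitor and a chromatin protein of embryonic and tumour cells are encoded there. Cluster 10 was led by Cxcl14, Tagln, Thbs2 and Acta2, genes of matrix-producing and contractile stroma. Cluster 11 was led by Serpinb2, Cryab, Ndufa4l2, Pgf, Il33 and Ero1l, of which the members Ndufa4l2 and Ero1l had no part in the clustering.

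Most members with a promoter in the table held the HIF core there, which their choice by function did not use directly. RefSeq promoters (GRCm38.p6) matched 33 of 37 members, Ero1l under the name Ero1a; Plod2, Bnip3l, Ndufa4l2 and Ndrg1 were not matched. The letters ACGTG and GCGTG were searched on both strands in the 250 bases before the start, overlapping matches included. At least one stood in 27 of 33 member promoters (81.8%), against 38.6% of all 27025 promoters. The member windows were also richer in CG, with a median of 17 CG dinucleotides against 6, and the part of base composition in that difference was not tested. A match is only a run of letters, and no binding was measured.

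The windows of 6 members are shown, for the 4 members that were above the KPPC range in each of the 3 populations tested below (Pfkp, Pfkfb3, P4ha2, Higd1a), for Hk2, which was lower in each of the 3, and for Ldha, which tied with Bnip3 for the most matches. Each is the coding-strand sequence of the gene, 5′ to 3′, ending at the base before the start, with the core in capitals (CACGT and CACGC are the same cores read from the other strand). Other start sites of these genes are not shown. The window of Pfkp was chr13:6648772-6649021 on the minus strand, that of Pfkfb3 chr2:11553930-11554179 (minus), that of P4ha2 chr11:54100674-54100923 (plus), that of Higd1a chr9:121857797-121858046 (minus), that of Hk2 chr6:82774455-82774704 (minus) and that of Ldha chr7:46845554-46845803 (plus).
Pfkp: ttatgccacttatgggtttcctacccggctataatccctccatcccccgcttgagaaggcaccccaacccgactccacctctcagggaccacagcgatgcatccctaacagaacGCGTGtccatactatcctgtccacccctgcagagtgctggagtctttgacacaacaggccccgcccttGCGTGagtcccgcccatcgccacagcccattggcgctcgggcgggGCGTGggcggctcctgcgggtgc
Pfkfb3: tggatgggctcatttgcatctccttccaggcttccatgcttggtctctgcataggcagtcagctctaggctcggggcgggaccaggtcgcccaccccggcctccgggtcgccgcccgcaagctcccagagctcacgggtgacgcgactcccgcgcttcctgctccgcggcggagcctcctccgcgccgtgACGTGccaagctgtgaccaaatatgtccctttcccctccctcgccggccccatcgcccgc
P4ha2: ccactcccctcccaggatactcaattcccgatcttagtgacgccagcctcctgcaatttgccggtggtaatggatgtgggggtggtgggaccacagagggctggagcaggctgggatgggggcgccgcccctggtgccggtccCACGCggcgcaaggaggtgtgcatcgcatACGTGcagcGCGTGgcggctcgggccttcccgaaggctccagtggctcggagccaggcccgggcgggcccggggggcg
Higd1a: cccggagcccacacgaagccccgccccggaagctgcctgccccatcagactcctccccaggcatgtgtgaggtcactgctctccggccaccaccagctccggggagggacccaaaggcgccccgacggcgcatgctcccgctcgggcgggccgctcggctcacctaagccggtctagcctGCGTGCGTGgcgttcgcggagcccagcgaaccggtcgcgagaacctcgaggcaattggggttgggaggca
Hk2: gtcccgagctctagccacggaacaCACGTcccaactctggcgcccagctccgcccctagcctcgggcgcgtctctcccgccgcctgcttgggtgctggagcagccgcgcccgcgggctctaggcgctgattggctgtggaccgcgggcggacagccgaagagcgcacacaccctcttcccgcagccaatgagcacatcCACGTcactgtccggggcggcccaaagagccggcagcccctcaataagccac
Ldha: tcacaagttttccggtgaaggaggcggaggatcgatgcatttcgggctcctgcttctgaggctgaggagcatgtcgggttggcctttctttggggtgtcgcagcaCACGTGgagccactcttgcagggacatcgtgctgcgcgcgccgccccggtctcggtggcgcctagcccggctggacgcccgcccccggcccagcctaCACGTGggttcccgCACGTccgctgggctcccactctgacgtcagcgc
Pfkp and Higd1a held GCGTG only, with 3 and 2 matches, and the 2 of Higd1a overlap. Pfkfb3 held a single ACGTG, P4ha2 held 1 ACGTG and 2 GCGTG, and Hk2 held 2 ACGTG. Ldha held 5 ACGTG matches, 4 of them from 2 palindromes CACGTG, each read on both strands. Higher and lower members in KPPCN thus both carried the core. Gpi1, Hk1, Aldoa, Tpi1, Pkm and Mxi1 had none of these letters in the window.

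Cluster 11 was the cell population with the highest summed CPM of the members. The 37 members summed to 22169, 25779 and 28951 CPM in KPPC and 27256 in KPPCN 2 there, that is in every library with 20 cells of it (37, 320 and 47 cells in KPPC and 52 in KPPCN 2); 18 cells of KPPCN 1 gave 24843 CPM. The same sum was 5776, 6997 and 5755 CPM in KPPC and 7055 and 9141 in KPPCN in fibroblast-like cells and 7953, 9035 and 8231 CPM in KPPC and 11810.5 and 9058 in KPPCN in epithelial-like cells. Cdkn2a/Hmga2-high clusters lay between, at 14955, 14271 and 13336 CPM in KPPC and 14113 and 22738 in KPPCN, with KPPCN 2 far above the others. Unnamed cluster 3 gave 15285 CPM in KPPC C3, 11568 in KPPCN 1 and 26343 in KPPCN 2, the last close to cluster 11. Unnamed cluster 4 gave 10747, 18256 and 17936 CPM in KPPC and 22948 in KPPCN 2. Median depth in these libraries was 3689 to 4628 UMIs per cell in cluster 3 and 1371 to 2586.5 in cluster 4. It was 12167 to 50257.5 in Cdkn2a/Hmga2-high clusters. Median mitochondrial shares in clusters 3 and 4 were 0.165% to 1.12%, against 2.04% to 3.25% over all cells of a library. The part of RNA content in the sums of clusters 3 and 4 was not tested. Lymphocytes were low: T/NK-like cells gave 3993 CPM in KPPC C3 and 4072 in KPPCN 1. Erythroid-like cells gave 1201 CPM in KPPC C3. These levels by class are a description, since the classes come from the same cells.

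**Figure D1:**
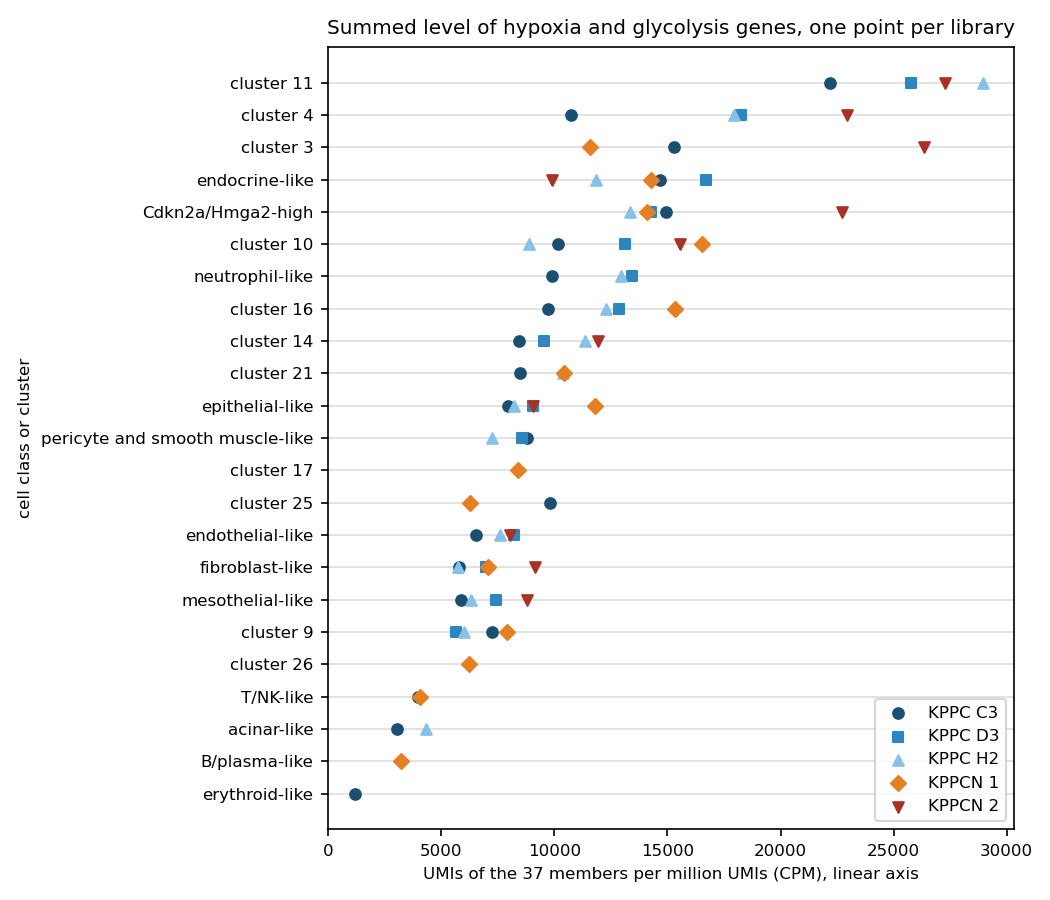
Summed CPM of the 37 members (horizontal axis, linear, from 0) in each cell class or cluster (vertical axis, ordered by the median over libraries), with 1 point per library that held at least 20 cells of it. Cluster 11 lies at 22169 to 28951 CPM, the fibroblast-like class at 5755 to 9141 CPM, and KPPCN 2 stands to the right of the other libraries in the Cdkn2a/Hmga2-high clusters and in cluster 3.

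Against fibroblast-like cells of the same library, 31 of 37 members were higher in cluster 11 in all 4 libraries with enough cells of both, and 2 (Hk2 and Hif1a) were lower in all 4. Of all genes compared, 17.6% were higher and 25.6% lower in all 4. The median over the members of the mean log2 ratio was 2.04, against -0.07 over all genes. These ratios were taken after 5 CPM had been added to both levels, which shrinks them for genes with few counts. Cluster 11 was also above cluster 10 for 30 members (15.9% of all genes), above cluster 14 for 35 (13.3%) and above mesothelial-like cells for 35 (13.7%). No test is given, since cluster 11 was singled out for its member levels.

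With 5 CPM added to both levels, the widest ratios of cluster 11 over fibroblast-like cells were in oxygen sensing, pH and the endoplasmic reticulum. Egln3, a HIF prolyl hydroxylase that HIF itself induces, had a mean log2 ratio of 4.42 ± 0.67 (SD, n = 4 libraries). Car9, a carbonic anhydrase that acidifies the space outside the cell, had 4.08 ± 0.43. In KPPC fibroblast-like cells Egln3 and Car9 were near or under the added 5 CPM, so their ratios are understated. Without it the order of the widest ratios may differ. Ero1l, the oxidase that renews disulfide formation, had 3.72 ± 0.35. Transport and mitochondria followed: Ndufa4l2, a homologue of a respiratory chain subunit, had 3.30 ± 0.62, the lactate exporter Slc16a3 3.19 ± 0.87 and the glucose transporter Slc2a1 2.97 ± 0.51. Glycolytic enzymes were also higher, with 2.73 ± 0.74 for Eno1, 2.71 ± 0.81 for Pgk1, 2.29 ± 0.31 for Gapdh and 1.95 ± 0.45 for Ldha.

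Some members did not share this. Hk2, the hexokinase that opens glycolysis, was -0.82 ± 0.30 on that scale and Hif1a -0.33 ± 0.44. Plod2 (-0.01 ± 0.58), Pfkfb4 (-0.13 ± 0.31), Adm (0.16 ± 0.91) and Kdm3a (0.28 ± 0.35) had ratios on both sides of 0 among the 4 libraries. Within single libraries, cluster 11 was the highest population for 18, 22 and 26 of 37 members in KPPC C3, D3 and H2 and for 16 in KPPCN 2.

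Single cells of cluster 11 varied widely. After each cell was thinned to 1000 UMIs, so that depth did not differ, the median cell of cluster 11 held 19, 26 and 28 member UMIs in KPPC and 28 in KPPCN 2. The quartiles of its cells were 17 and 37 UMIs in KPPC D3, the library with most of them. Fibroblast-like cells held a median of 5 in each KPPC library, 6 in KPPCN 1 and 8 in KPPCN 2. Even the 5th percentile of cluster 11 (6.6, 9 and 9.6 in KPPC, 13 in KPPCN 2) was above those fibroblast medians in each of the 4 libraries.

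Members also differed in which cells held them. Ndufa4l2 was a stromal gene: cluster 10 gave 254, 462 and 176 CPM in KPPC and 680.4 and 695 in KPPCN and pericyte and smooth muscle-like cells 417, 451 and 566 CPM in KPPC. Epithelial-like cells gave 3.48, 5.73 and 1.66 CPM in KPPC and 10.8 and 3.30 in KPPCN. Car9 went the other way among these, with 103, 72.2 and 50.6 CPM in KPPC and 61.9 and 97.2 in KPPCN in epithelial-like cells and 1.80, 1.42 and 1.23 CPM in KPPC and 0.630 and 10.7 in KPPCN in fibroblast-like cells. Acinar-like cells of KPPC C3 and H2 gave Car9 at 137 and 109 CPM.

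Adm, the vasodilator peptide adrenomedullin, was counted at 114, 124 and 62.6 CPM in KPPC and 115 and 98.7 in KPPCN in fibroblast-like cells and at 126, 83.4 and 96.9 CPM in KPPC endothelial-like cells. Pericyte and smooth muscle-like cells gave 11.03 to 13.03 CPM. Egln3 was high in neutrophil-like cells of KPPC (152, 265 and 367 CPM) besides cluster 11 (181, 319.8 and 305 CPM), and low in fibroblast-like cells at 4.65, 6.17 and 4.63 CPM in KPPC and 5.51 and 25.1 in KPPCN. Slc16a3 in neutrophil-like cells of KPPC was at 812, 663 and 839.6 CPM, above every other population of those libraries. These neutrophil-like values rest on 21 to 35 cells per library.

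Hk2 and its sister Hk1 were highest in different populations. Hk1 was highest in cluster 11 in 2 libraries and in Cdkn2a/Hmga2-high, endothelial-like and epithelial-like cells in 1 library each. Hk2 was highest of all populations in fibroblast-like cells in 4 of 5 libraries, at 958, 746 and 559 CPM in KPPC and 377 and 784 in KPPCN. Slc2a1, which brings glucose in, was instead at 24.1, 46.03 and 20.4 CPM in KPPC and 23.5 and 71.2 in KPPCN in those cells. In endocrine-like cells it was at 248, 260.1 and 164 CPM in KPPC and 164 and 286 in KPPCN. The endocrine-like class depended on the clustering, as described below. Plod2, a collagen lysyl hydroxylase, was at 371, 385 and 418 CPM in KPPC and 388 and 529 in KPPCN in fibroblast-like cells and at 14.5, 10.04 and 5.06 CPM in KPPC and 27.8 and 19.8 in KPPCN in epithelial-like cells.

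**Figure D2:**
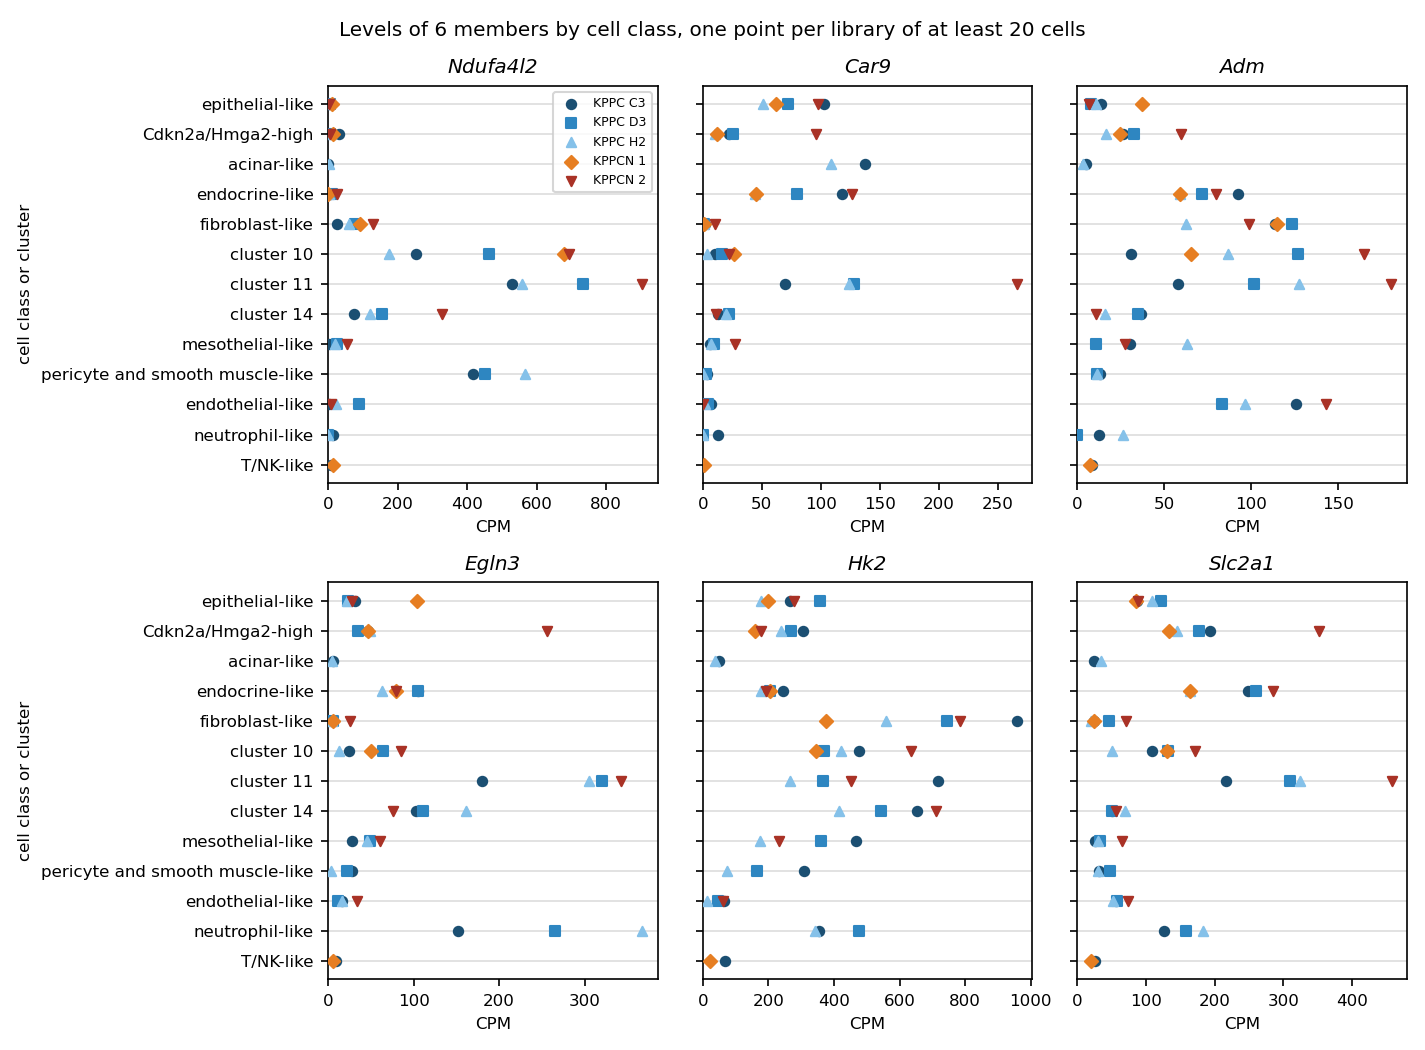
CPM (horizontal axes, linear, from 0) of 6 members in 13 cell classes or clusters (vertical axis), with 1 point per library that held at least 20 cells. Ndufa4l2 is high in cluster 10, cluster 11 and pericyte and smooth muscle-like cells and close to 0 in epithelial-like cells, Car9 has the reverse order of epithelial-like and fibroblast-like cells, and Hk2 is highest in fibroblast-like cells.

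The genotypes were then compared within populations, which asks whether cells of the libraries labelled KPPCN differ from those of KPPC in these genes. UMIs were summed per library and population, scaled to a common trimmed mean (scaled CPM), and tested with limma on log2(scaled CPM + 5), KPPCN minus KPPC, 3 libraries against 2, two-sided, with Benjamini-Hochberg adjustment over all genes tested at 0.05. Differences are given as log2 ± standard error (SE). Epithelial-like cells, fibroblast-like cells and Cdkn2a/Hmga2-high clusters had 20 cells in every library. No member passed the threshold in any of them. Most members were nevertheless higher in KPPCN in each, and 23 of the 35 members tested in all 3 were higher in all 3 (65.7%, against 19.7% of all genes tested there).

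In epithelial-like cells (492, 800 and 571 cells in KPPC, 41 and 26 in KPPCN), 29 of 37 members were higher in KPPCN and 8 lower. The median over the members was 0.34, against -0.02 over all 12096 genes tested. Both KPPCN libraries were above all 3 KPPC libraries for 11 members (15.2% of all genes) and below them for 3 (18.4% of all genes). No member was called (0% of all genes), the lowest adjusted p being 0.577 (limma). Unadjusted p was under 0.05 for 5 members, 4 higher and 1 lower. The same held for 1041 of all 12096 genes, 346 higher and 695 lower. The share of members above was higher than that of all genes, and the share below was lower.

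P4ha1 and Plod2 had the largest differences among the members in epithelial-like cells. P4ha1, a catalytic subunit of collagen prolyl hydroxylase, gave 19.9, 20.7 and 11.4 scaled CPM in KPPC and 54.7 and 28.2 in KPPCN (log2 difference 1.02 ± 0.43). Plod2 had 14.9, 9.99 and 5.19 scaled CPM in KPPC and 28.1 and 18.8 in KPPCN, which is a log2 difference of 0.96 ± 0.55. Both KPPCN libraries lay above KPPC for these, but KPPC H2 was low for both and KPPCN 1 was the highest. Ero1l differed by 0.17 ± 0.29 and its groups overlapped.

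For Pfkp, the platelet-type phosphofructokinase, the values were 26.9, 24.8 and 25.6 scaled CPM in KPPC and 76.6 and 32.96 in KPPCN (log2 difference 0.86 ± 0.29). Aldoa, the main aldolase, was at 753, 666 and 718 scaled CPM in KPPC and 1421 and 943 in KPPCN, a log2 difference of 0.70 ± 0.20. Pkm, pyruvate kinase, gave 833, 869 and 999.5 scaled CPM in KPPC and 1632 and 1055 in KPPCN (log2 difference 0.55 ± 0.22). The groups did not overlap for these 3 enzymes of glycolysis, and KPPCN 1 was well above KPPCN 2 in each. Bnip3, a receptor for the removal of mitochondria, had 31.2, 33.4 and 21.9 scaled CPM in KPPC and 79.7 and 37.7 in KPPCN, which is a log2 difference of 0.84 ± 0.36. For Mxi1, an antagonist of Myc, the values were 21.4, 25.4 and 21.3 scaled CPM in KPPC and 12.5 and 14.1 in KPPCN (log2 difference -0.60 ± 0.21). Mxi1 was the one member lower by more than 0.5 without overlap. Slc2a1 was also below the KPPC range in both KPPCN libraries (-0.31 ± 0.20), as was Pdk1 (-0.19 ± 0.22), the kinase that keeps pyruvate out of the mitochondria.

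These epithelial values rested on few KPPCN cells and on KPPCN 1. Without KPPCN 1 the median over the members was 0.053, and without KPPCN 2 it was 0.51. With each cell thinned to 1000 UMIs it was -0.27, where 1 UMI of KPPCN was worth 24.4 and 38.5 CPM, and Bnip3 and P4ha1 were then lower in KPPCN, by -0.58 and -0.42. Of 49 other pathway genes tested here, 31 were higher and 18 lower, with a median of 0.12. Among them the largest differences above the KPPC range were 1.03 ± 0.25 for Slc2a3, 0.83 ± 0.26 for Gys1 and 0.73 ± 0.27 for Vldlr, and those below it were -1.21 ± 0.31 for Tmem45a, -0.90 ± 0.17 for Bpgm and -0.52 ± 0.20 for Wsb1.

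In fibroblast-like cells (1010, 148 and 232 in KPPC, 964 and 152 in KPPCN), 29 of 35 members tested were higher and 6 lower; Aldoc and Car9 had too few UMIs and were left out by the filter. The median over the members was 0.42, against 0.01 over all 10771 genes. Both KPPCN libraries were above all KPPC libraries for 14 members (14.3% of all genes) and below for 1 (12.1% of all genes). No member was called (0% of all genes), the lowest adjusted p being 0.43 (limma). Unadjusted p was under 0.05 for 10 members, all higher. The same held for 910 of all 10771 genes, 471 higher and 439 lower.

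Enzymes of glycolysis and the regulators of phosphofructokinase made up most of the 14. Pkm was at 342, 449 and 379 scaled CPM in KPPC and 583 and 710.2 in KPPCN, a log2 difference of 0.72 ± 0.20. Eno1, enolase, gave 116, 180.2 and 151 scaled CPM in KPPC and 225 and 226 in KPPCN (log2 difference 0.62 ± 0.21). Tpi1, triosephosphate isomerase, had 227, 298 and 216 scaled CPM in KPPC and 337 and 401 in KPPCN, which is a log2 difference of 0.58 ± 0.20. In all 3 genes KPPC D3 was the highest KPPC library and still below both KPPCN libraries. For Pfkp, the values were 58.1, 66.2 and 63.9 scaled CPM in KPPC and 100.1 and 80.7 in KPPCN (log2 difference 0.51 ± 0.17). Pfkfb4, which makes an activator of phosphofructokinase, was at 5.87, 6.15 and 7.03 scaled CPM in KPPC and 16.7 and 10.7 in KPPCN, a log2 difference of 0.75 ± 0.19. For these 2 KPPCN 1 was above KPPCN 2. Hk1, Gpi1, Aldoa, Gapdh, Pfkfb3 and Ankrd37 had log2 differences of 0.40 to 0.45 with both KPPCN libraries above KPPC, whereas Hk2 had -0.51 ± 0.35 with overlapping groups.

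Ndufa4l2 gave 24.9, 77.1 and 62.6 scaled CPM in KPPC and 90.3 and 127 in KPPCN (log2 difference 1.10 ± 0.42). P4ha2, the second collagen prolyl hydroxylase subunit, had 99.1, 119 and 87.6 scaled CPM in KPPC and 149 and 227 in KPPCN, which is a log2 difference of 0.82 ± 0.23. For Higd1a, a small protein of the inner mitochondrial membrane, the values were 119, 158 and 118 scaled CPM in KPPC and 193 and 210.5 in KPPCN (log2 difference 0.62 ± 0.19). KPPCN 2 was the highest library for each of these. Bnip3l was the one member below the KPPC range, with a log2 difference of -0.37 ± 0.18. The oxygen-dependent enzymes Egln1 (0.24 ± 0.28) and Kdm3a (0.04 ± 0.15) and the transcription factor Hif1a (0.04 ± 0.29) had overlapping groups.

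The fibroblast-like class was held by different clusters in the libraries. Cluster 0 gave 998, 148 and 214 of its cells in KPPC and 151 in KPPCN 2, whereas cluster 5 gave 947 of 964 cells in KPPCN 1. Cluster 5 got its class name narrowly, with a marker score of 1.507 against a minimum of 1.5. At Leiden resolutions 0.5 and 2 the fibroblast-like class held only 21 cells of KPPCN 1. Within cluster 0 the members summed to 5781, 6997 and 5759 CPM in KPPC and 9138 CPM in KPPCN 2, and in cluster 5 of KPPCN 1 to 7080 CPM. KPPCN 1 alone was above all KPPC libraries for 14 of 35 members (40.0%, against 35.1% of all genes) and below for 9 (25.7%, against 31.5%), shares near those of all genes. KPPCN 2 alone was above for 31 (88.6%, against 31.4%) and below for 1 (2.86%, against 29.5%). Without KPPCN 2 the median over the members was 0.12. Genotype and cluster cannot be told apart for KPPCN 1. The 3 blood cell markers summed here to 22.3 to 139 CPM in KPPC and 1548 and 77.5 CPM in KPPCN. Of 48 other pathway genes, 21 were higher and 27 lower, with a median of -0.10. Among them the largest differences above the KPPC range were 0.91 ± 0.21 for Loxl2, 0.77 ± 0.19 for Mif and 0.47 ± 0.17 for Plod1, and those below it were -1.19 ± 0.25 for Ldhb, -0.68 ± 0.23 for Epas1 and -0.59 ± 0.25 for Insig2.

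In the Cdkn2a/Hmga2-high clusters (272, 125 and 44 cells in KPPC, 278 and 1131 in KPPCN), 32 of 37 members were higher and 5 lower. The median over the members was 0.35, against 0.02 over all 11406 genes. Both KPPCN libraries were above all KPPC libraries for 7 members (11.5% of all genes) and below for 1 (8.58% of all genes). No member was called (0% of all genes), the lowest adjusted p being 0.80 (limma). Unadjusted p was under 0.05 for 6 members, 5 higher and 1 lower. The same held for 659 of all 11406 genes, 359 higher and 300 lower.

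Slc16a3 was at 157, 101 and 95.4 scaled CPM in KPPC and 168 and 426 in KPPCN, a log2 difference of 1.18 ± 0.42. Pfkfb3, a kinase that raises the activator of phosphofructokinase, gave 11.7, 16.3 and 12.02 scaled CPM in KPPC and 19.6 and 56.5 in KPPCN (log2 difference 1.12 ± 0.39). P4ha2 had 122, 109.7 and 119 scaled CPM in KPPC and 135 and 287 in KPPCN, which is a log2 difference of 0.73 ± 0.32. KPPCN 2 stood far above every other library for these 3, and KPPCN 1 was only just above the highest KPPC library. For Higd1a, the values were 394, 286 and 368 scaled CPM in KPPC and 435 and 698 in KPPCN (log2 difference 0.67 ± 0.27). Pfkp was at 81.7, 79.6 and 60.1 scaled CPM in KPPC and 95.7 and 160.5 in KPPCN, a log2 difference of 0.72 ± 0.28. Ankrd37, an ankyrin-repeat protein induced in hypoxia, gave 38.1, 39.1 and 25.5 scaled CPM in KPPC and 49.9 and 72.3 in KPPCN (log2 difference 0.74 ± 0.26). The same order held for them. Aldoc had 10.1, 7.61 and 10.5 scaled CPM in KPPC and 11.4 and 27.1 in KPPCN, which is a log2 difference of 0.72 ± 0.32. For Hk2, the values were 325, 266 and 226 scaled CPM in KPPC and 163 and 174 in KPPCN (log2 difference -0.67 ± 0.22). Hk2 was the one member below the KPPC range, in both KPPCN libraries alike.

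In 2 members with larger differences the groups overlapped. Egln3 was counted at 49.4, 34.8 and 45.8 scaled CPM in KPPC and 47.5 and 252 in KPPCN, and Plod2 at 57.1, 43.7 and 65.3 scaled CPM in KPPC and 64.9 and 276 in KPPCN. KPPCN 2 was higher than all other libraries for both, and KPPCN 1 lay within the KPPC range. Car9 behaved likewise, at 23.8, 25.3 and 9.76 scaled CPM in KPPC and 12.7 and 94.6 in KPPCN.

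The libraries drew on different clusters here too. Cluster 6 held 231, 101 and 36 cells of KPPC and 249 of KPPCN 1, and cluster 19 held 788 cells of KPPCN 2 and at most 3 of any other library. The members summed in cluster 6 to 15610, 14043 and 13504 CPM in KPPC and 15091 in KPPCN 1, which is within the KPPC range. In cluster 7, whose leading genes Top2a and Ube2c belong to dividing cells, they summed to 12073 and 14783 CPM in KPPC C3 and D3, 10338 in KPPCN 1 and 18699 in KPPCN 2. Cluster 19 of KPPCN 2 gave 25315 CPM. Without KPPCN 2 the median over the members was -0.0014, and without KPPCN 1 it was 0.85, with 3 members and 66 genes called by limma, where the lone KPPCN library is assumed to vary like the KPPC libraries. The difference therefore rested on KPPCN 2. The 3 blood cell markers summed to 10.3 to 236 CPM in KPPC and 983 and 171 CPM in KPPCN. Of 48 other pathway genes, 33 were higher and 15 lower, with a median of 0.16. Among them the largest differences above the KPPC range were 2.36 ± 0.48 for Loxl2, 1.55 ± 0.53 for Tmem45a and 1.42 ± 0.42 for Rora, and the one below it was -0.40 ± 0.24 for Pgm1.

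In all, 4 of the 35 members tested in all 3 populations were above the KPPC range in all 3, Pfkp, Pfkfb3, P4ha2 and Higd1a, against 1.00% of the 10170 genes tested in all 3. The 3 populations come from the same libraries, so these are not separate observations. Hk2 and Bnip3l were lower in all 3, though mostly with overlapping groups. By role, the genes of collagen modification and disulfide formation (P4ha1, P4ha2, Plod2, Ero1l) were higher in KPPCN for 4 of 4 members in each of the 3 populations, with medians of 0.69, 0.30 and 0.59 in epithelial-like, fibroblast-like and Cdkn2a/Hmga2-high cells. The hexose steps of glycolysis, from the hexokinases to Tpi1, were higher for 9 of 10, 8 of 9 and 9 of 10 members, with medians of 0.39, 0.45 and 0.33. The later steps, from Gapdh to Ldha with Pdk1, were higher for 5 of 7, 7 of 7 and 7 of 7, with medians of 0.17, 0.44 and 0.34. Mitochondrial members were split, higher for 3, 2 and 2 of 4. Secreted, pH and stress members (Adm, Car9, Ndrg1, Ddit4) had medians of 0.03, -0.23 and 0.30; in fibroblast-like cells 3 of them were tested, without Car9, of which 1 was higher and 2 lower.

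A test of whether the genotype difference differed between epithelial-like and fibroblast-like cells, fitted on within-library differences, called no member of 35 and no gene of 10452 (0%) with limma. Its lowest adjusted p over the members was 0.44, for Gapdh, whose epithelial difference was -0.01 ± 0.21 and whose fibroblast difference was 0.44 ± 0.20; 1 member and 1080 genes had an unadjusted p under 0.05.

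**Figure D3:**
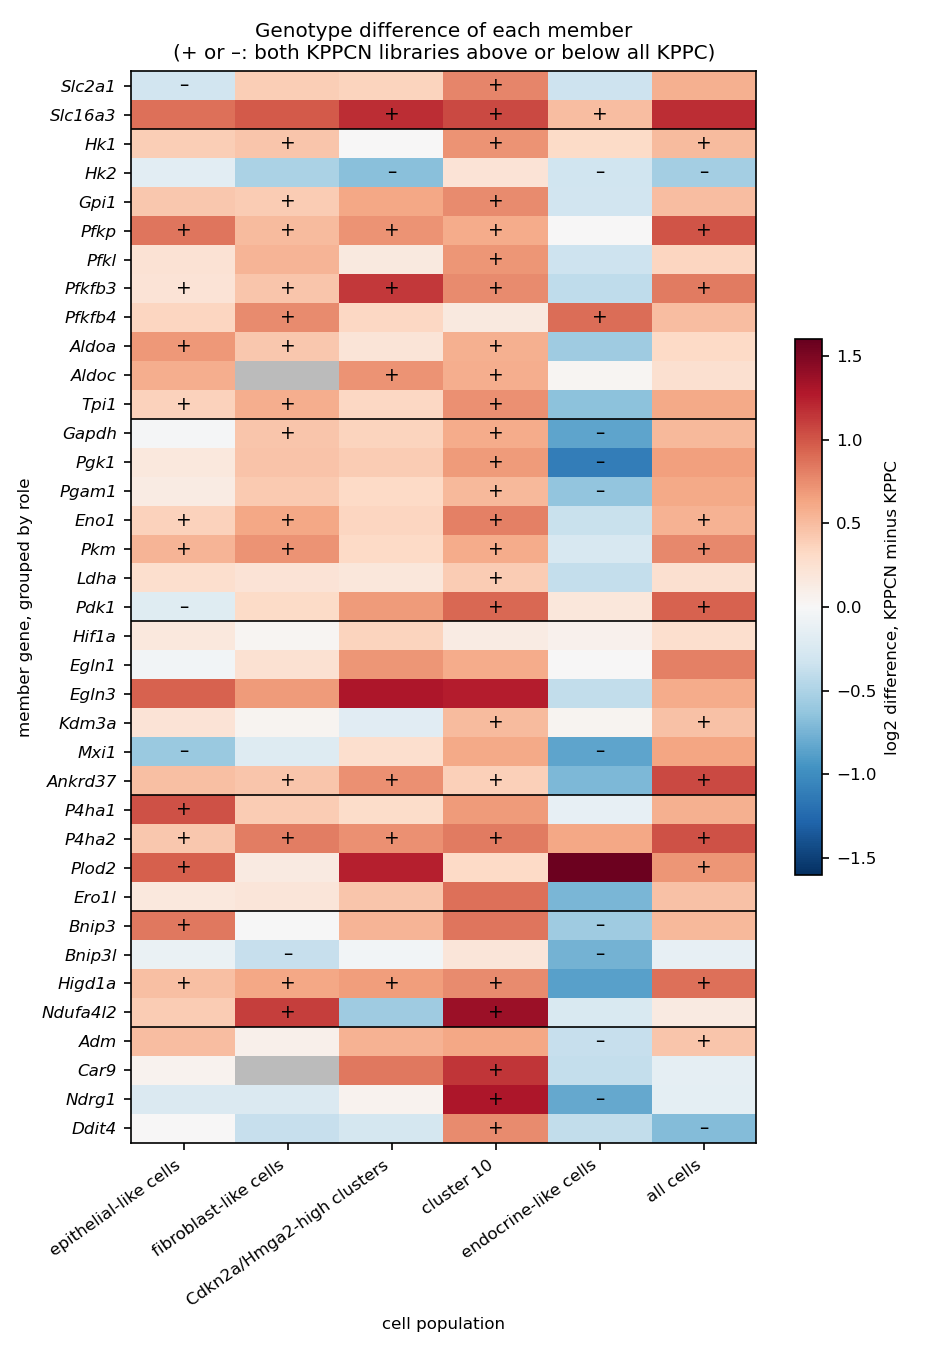
Log2 difference, KPPCN minus KPPC, of each member (rows, grouped by role) in 6 populations (columns), red where higher in KPPCN and blue where lower. A plus or minus marks members whose 2 KPPCN libraries both lie above or below all 3 KPPC libraries, and grey marks the 2 not tested; cluster 10 has 25 plus signs and endocrine-like cells 9 minus signs.

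Besides these, 2 populations had 20 cells in every library, cluster 10 and endocrine-like cells. They were added after the clusters had been seen, so they are described with differences and SE and without a test. In cluster 10 (211, 129 and 342 cells in KPPC, 124 and 134 in KPPCN), all 37 members had a higher fitted value in KPPCN, with differences from 0.13 to 1.37. The median was 0.68, against 0.00 over all 10587 genes. Both KPPCN libraries were above all KPPC libraries for 25 members (10.6% of all genes) and below for 0 (11.4% of all genes). The median stayed between 0.58 and 0.80 with any 1 library left out. The fit was not repeated for this population at other clusterings. At Leiden resolution 2, a cluster led by Cxcl14 and Thbs2 held 136, 68 and 77 cells in KPPC and 49 and 36 in KPPCN. One led by A2m and Dio3 held 47, 58 and 234 in KPPC and 17 and 86 in KPPCN. Another, led by Cryab and Ndufa4l2, held 57, 282 and 79 in KPPC and 86 and 71 in KPPCN. Cluster 11 had held 37, 320 and 47 in KPPC and 18 and 52 in KPPCN. Which cells of cluster 10 these took was not followed, and the part of cell kinds in its differences was not tested.

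Transport and acid-handling members were among those above the KPPC range in cluster 10. Slc16a3 was at 129, 177 and 85.8 scaled CPM in KPPC and 288 and 243 in KPPCN, a log2 difference of 1.05 ± 0.31. Slc2a1 gave 103, 126 and 53.5 scaled CPM in KPPC and 132 and 179 in KPPCN (log2 difference 0.78 ± 0.36). Car9 had 9.54, 15.6 and 4.11 scaled CPM in KPPC and 26.4 and 23.03 in KPPCN, which is a log2 difference of 1.14 ± 0.35. KPPC D3 was the highest KPPC library in all 3 genes, and KPPC H2 the lowest. For Ndufa4l2, the values were 242, 438 and 187 scaled CPM in KPPC and 689 and 722 in KPPCN (log2 difference 1.37 ± 0.35). Ndrg1, a stress-response gene, was at 121, 169 and 122 scaled CPM in KPPC and 277 and 409.7 in KPPCN, a log2 difference of 1.30 ± 0.25. Ddit4, an inhibitor of the mTOR growth pathway, gave 87.9, 97.4 and 122 scaled CPM in KPPC and 188 and 165 in KPPCN (log2 difference 0.76 ± 0.21). The KPPCN libraries were close to each other for Ndufa4l2 and Ddit4 and apart for Ndrg1.

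The glycolytic chain in cluster 10 separated at nearly every step. Hk1 had 44.98, 47.98 and 35.2 scaled CPM in KPPC and 70.5 and 73.6 in KPPCN, which is a log2 difference of 0.71 ± 0.19. For Gpi1, glucose phosphate isomerase, the values were 255, 316 and 243 scaled CPM in KPPC and 444 and 474 in KPPCN (log2 difference 0.76 ± 0.20). Pfkp was at 89.5, 95.2 and 61.4 scaled CPM in KPPC and 136 and 112 in KPPCN, a log2 difference of 0.59 ± 0.24. Hk2, by contrast, differed by 0.22 ± 0.30 and overlapped. Pfkl, the liver-type phosphofructokinase, gave 69.03, 117 and 80.1 scaled CPM in KPPC and 145 and 141 in KPPCN (log2 difference 0.70 ± 0.24). Pfkfb3 had 12.4, 13.5 and 10.97 scaled CPM in KPPC and 22.6 and 25.1 in KPPCN, which is a log2 difference of 0.76 ± 0.17. For Aldoa, the values were 657, 802 and 637 scaled CPM in KPPC and 1118 and 962 in KPPCN (log2 difference 0.57 ± 0.21). Pfkfb3 was about as high in KPPCN 1 as in KPPCN 2. Aldoc was at 2.28, 3.91 and 3.15 scaled CPM in KPPC and 8.61 and 5.93 in KPPCN, a log2 difference of 0.58 ± 0.21. Tpi1 gave 390.3, 556 and 404 scaled CPM in KPPC and 746 and 731 in KPPCN (log2 difference 0.73 ± 0.23). Aldoc was near the added 5 CPM, so its difference is understated.

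The later steps followed. Gapdh had 2401, 2964 and 2335 scaled CPM in KPPC and 4553 and 3263 in KPPCN, which is a log2 difference of 0.59 ± 0.25. For Pgk1, phosphoglycerate kinase, the values were 361, 574 and 406 scaled CPM in KPPC and 669.5 and 743 in KPPCN (log2 difference 0.68 ± 0.25). Pgam1, phosphoglycerate mutase, was at 543, 694 and 492 scaled CPM in KPPC and 886 and 759 in KPPCN, a log2 difference of 0.52 ± 0.23. KPPC D3 came closest to the KPPCN libraries in these. Eno1 gave 328, 444 and 397 scaled CPM in KPPC and 844 and 545 in KPPCN (log2 difference 0.80 ± 0.26). Pkm had 898, 1143 and 847 scaled CPM in KPPC and 1710.0 and 1227 in KPPCN, which is a log2 difference of 0.60 ± 0.25. For Pdk1, the values were 21.1, 26.3 and 26.5 scaled CPM in KPPC and 43.6 and 57.2 in KPPCN (log2 difference 0.91 ± 0.19). Ldha, at the end of the chain, differed by 0.41 ± 0.23, with KPPCN 2 just above KPPC D3.

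Of the remaining roles, fewer members separated in cluster 10. P4ha2 was at 231, 321 and 211 scaled CPM in KPPC and 411 and 487 in KPPCN, a log2 difference of 0.83 ± 0.24. Higd1a gave 337, 359 and 234 scaled CPM in KPPC and 506 and 528 in KPPCN (log2 difference 0.76 ± 0.24). Kdm3a, a histone demethylase, had 10.6, 10.7 and 12.5 scaled CPM in KPPC and 13.99 and 22.3 in KPPCN, which is a log2 difference of 0.51 ± 0.20. Hif1a, whose control lies mainly in protein stability, had the smallest difference (0.13 ± 0.44), with KPPCN 1 below and KPPCN 2 above the KPPC range. Egln3 differed by 1.25 ± 0.53 and Ero1l by 0.88 ± 0.38, in both cases with KPPCN 1 inside the KPPC range. Alongside, the 3 blood cell markers summed in cluster 10 to 55.5 to 218 CPM in KPPC and 706 and 75.02 CPM in KPPCN.

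Cells of cluster 10 were mixed. At 1000 UMIs per cell the median cell held 7, 9 and 8 member UMIs in KPPC and 11 and 15 in KPPCN. The upper 5% of its cells began at 29.5, 30 and 20.95 UMIs in KPPC and at 37 and 30 in KPPCN, against medians of 19 to 28 in cluster 11. Of 49 other pathway genes, 32 were higher and 17 lower, with a median of 0.28. Among them the largest differences above the KPPC range were 1.501 ± 0.78 for Cox4i2, 1.06 ± 0.29 for Fam162a and 0.92 ± 0.25 for Mif, and those below it were -0.54 ± 0.19 for Pgm1, -0.52 ± 0.17 for Mpc1 and -0.43 ± 0.16 for Ldhb.

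In endocrine-like cells most members had lower fitted values in KPPCN after trimmed-mean scaling, and both the amount and the counts of members depended on that scaling. Their leading genes were Ins2, Ins1, Iapp and Pyy together with Gkn2, Psca and S100a14, which belong to mucosal epithelium. Their marker score was 3.94 for endocrine and 2.01 for epithelial genes. Median depth was 2079 to 6083.5 UMIs per cell in KPPC and 2911 and 2091 in KPPCN. The class changed with the clustering. With 19 clusters in place of 28 it held 74, 127 and 44 cells in KPPC and 22 and 37 in KPPCN. With 38 clusters it held 27, 90 and 23 in KPPC and 10 and 6 in KPPCN. Those counts include marked doublets. The fit was not repeated for this class at other clusterings, so the values below hold for this clustering alone. Of 37 members, 11 were higher and 26 lower in KPPCN (142, 185 and 176 cells against 60 and 27), with a median of -0.36, against -0.14 over all 9085 genes. Both KPPCN libraries were above for 2 members (12.5% of all genes) and below for 9 (24.3%, near the 21.4% of all genes). With library totals in place of the trimmed-mean scaling the median over the members was -0.08. In unscaled CPM, KPPCN 1 was above the KPPC range for 8 members and below for 7 (40.8% and 26.4% of all genes). KPPCN 2 was above it for 14 and below for 13 (42.7% and 36.8%). The 3 blood cell markers summed to 14.4 to 96.6 CPM in KPPC and 5124 and 116 CPM in KPPCN.

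For Pgk1, the values were 1032, 1290.0 and 952 scaled CPM in KPPC and 691 and 345 in KPPCN (log2 difference -1.11 ± 0.38). Gapdh was at 4413, 5142 and 4613 scaled CPM in KPPC and 4093 and 1664 in KPPCN, a log2 difference of -0.84 ± 0.54. Pgam1 gave 554, 799 and 536 scaled CPM in KPPC and 440.4 and 351 in KPPCN (log2 difference -0.63 ± 0.32). KPPCN 2, with 27 cells, was the lowest library for these 3 enzymes. Ndrg1 had 490.5, 289.5 and 275 scaled CPM in KPPC and 227 and 149.7 in KPPCN, which is a log2 difference of -0.82 ± 0.35. For Bnip3l, the values were 221, 293 and 230.4 scaled CPM in KPPC and 148 and 138 in KPPCN (log2 difference -0.76 ± 0.28). Bnip3 was at 231, 179 and 148 scaled CPM in KPPC and 119 and 127 in KPPCN, a log2 difference of -0.56 ± 0.30. For Bnip3l and Bnip3 the KPPCN libraries agreed more closely. Mxi1 gave 44.3, 45.97 and 42.2 scaled CPM in KPPC and 15.8 and 40.3 in KPPCN (log2 difference -0.84 ± 0.35). Pfkfb4 had 3.00, 5.96 and 4.54 scaled CPM in KPPC and 10.6 and 17.3 in KPPCN, which is a log2 difference of 0.90 ± 0.50. Pfkfb4 rested on counts near the added 5 CPM. Of 43 other pathway genes, 14 were higher and 29 lower, with a median of -0.27. Among them the largest differences above the KPPC range were 1.70 ± 0.76 for Loxl2, 0.93 ± 0.45 for Plod1 and 0.60 ± 0.48 for Pdk3, and those below it were -2.04 ± 0.46 for Vhl, -1.32 ± 0.35 for Hilpda and -0.95 ± 0.51 for Epas1.

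**Figure D4:**
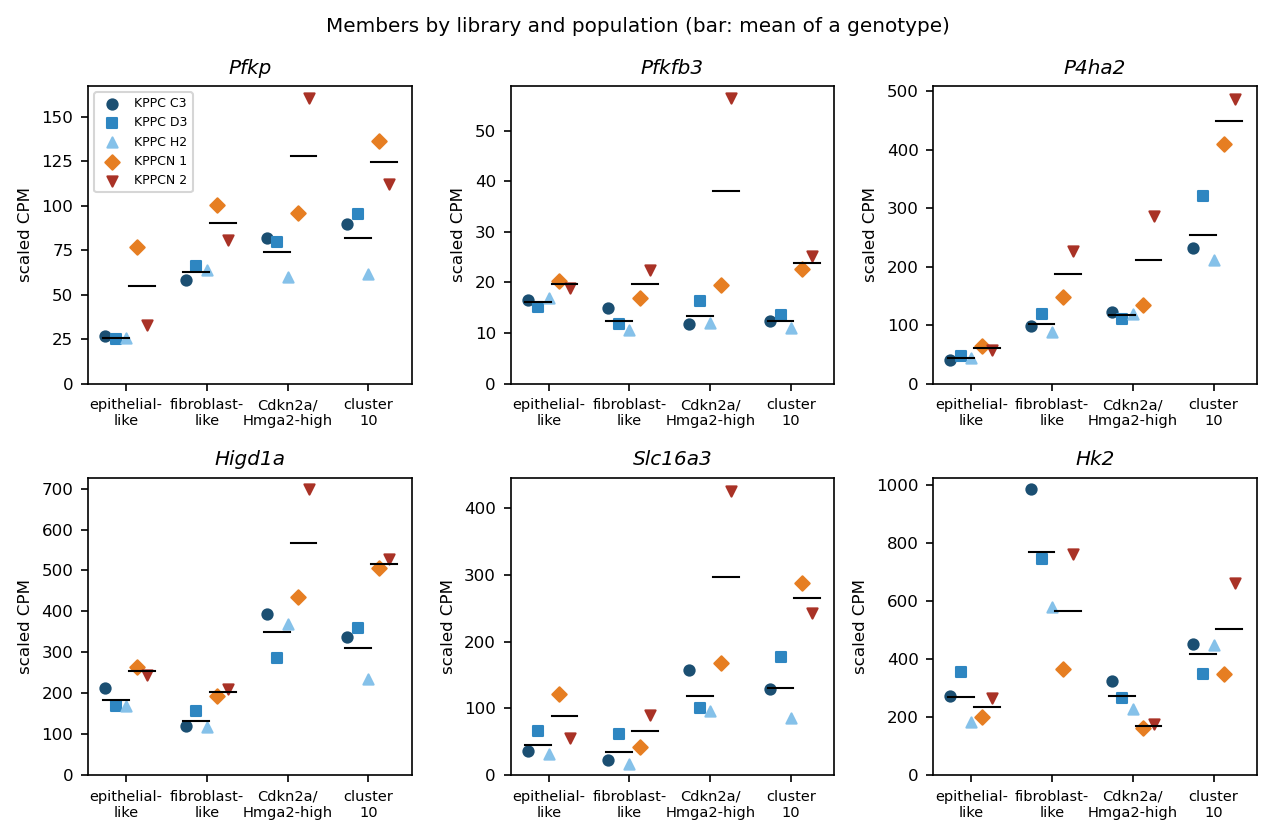
Scaled CPM (vertical axes, linear, from 0) of 6 members in 4 populations, with 1 point per library and a bar at the mean of each genotype. Both KPPCN points lie above all KPPC points for Pfkp, Pfkfb3, P4ha2 and Higd1a in every population shown, and for Hk2 both KPPCN points lie below all KPPC points in the Cdkn2a/Hmga2-high clusters alone.

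Over all cells of a library the genotype comparison mixes cell types, since KPPCN 1 was rich in lymphocytes and KPPCN 2 in Cdkn2a/Hmga2-high cells (1131 of 2010). The members summed to 9119, 11938 and 9183 CPM in KPPC and 9509 and 21006 in KPPCN. Of 37 members 32 were higher and 5 lower, with a median of 0.52 against 0.04 over all 12560 genes. Both KPPCN libraries were above for 12 (18.7% of all genes) and below for 2 (17.6% of all genes). No member was called, against 3 genes of all tested (0.0239%), each lower. Unadjusted p was under 0.05 for 7 of 37 members (6 higher, 1 lower), against 2038 of all 12560 genes (820 higher, 1218 lower). The lowest adjusted p of a member was 0.13, for Ddit4 (limma).

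For Ddit4, the values were 99.8, 114 and 104 scaled CPM in KPPC and 61.3 and 66.3 in KPPCN (log2 difference -0.69 ± 0.15). Hk2 was at 518, 384 and 266 scaled CPM in KPPC and 261 and 249.6 in KPPCN, a log2 difference of -0.55 ± 0.30. These 2 were lower in both KPPCN libraries than in any KPPC library. Pfkp gave 59.8, 63.8 and 51.00 scaled CPM in KPPC and 99.03 and 147 in KPPCN (log2 difference 1.00 ± 0.22). Ankrd37 had 16.9, 15.8 and 11.6 scaled CPM in KPPC and 20.2 and 59.8 in KPPCN, which is a log2 difference of 1.05 ± 0.41. For P4ha2, the values were 91.4, 109.9 and 79.9 scaled CPM in KPPC and 129 and 286 in KPPCN (log2 difference 1.01 ± 0.36). KPPCN 2 was much the highest library in each of the 3. Pdk1 was at 22.2, 23.2 and 22.2 scaled CPM in KPPC and 30.04 and 74.5 in KPPCN, a log2 difference of 0.94 ± 0.35. Higd1a gave 230.4, 253 and 193 scaled CPM in KPPC and 269 and 639 in KPPCN (log2 difference 0.88 ± 0.39). Pfkfb3 had 14.8, 14.7 and 16.01 scaled CPM in KPPC and 18.4 and 49.2 in KPPCN, which is a log2 difference of 0.83 ± 0.36. KPPCN 1 was close to the KPPC range in these. For Pkm, the values were 915, 1097 and 962 scaled CPM in KPPC and 1104 and 2583 in KPPCN (log2 difference 0.77 ± 0.37). Plod2 was at 176, 139.5 and 132 scaled CPM in KPPC and 193 and 310.5 in KPPCN, a log2 difference of 0.71 ± 0.26. The pattern was the same for Pkm, and Plod2 was less uneven. Eno1 gave 297, 439.6 and 423 scaled CPM in KPPC and 444 and 710.0 in KPPCN (log2 difference 0.55 ± 0.29). Hk1 had 63.1, 47.03 and 48.4 scaled CPM in KPPC and 68.3 and 85.3 in KPPCN, which is a log2 difference of 0.50 ± 0.20. For Eno1, KPPCN 1 was only just above KPPC D3.

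The KPPCN libraries did not resemble each other over all cells. KPPCN 1 was above all KPPC libraries for 13 of 37 members (35.1%, against 39.0% of all genes) and below for 12 (32.4%, against 33.8%), shares near those of all genes. KPPCN 2 was above for 33 (89.2%, against 40.9%) and below for 2 (5.41%, against 38.3%). Without KPPCN 2 the median over the members was -0.0048. Without KPPCN 1 it was 1.08, with 22 members and 3268 genes called (limma, the lone KPPCN library assumed to vary like the KPPC libraries). Of 50 other pathway genes, 28 were higher and 22 lower, with a median of 0.09. Among them the largest differences above the KPPC range were 1.35 ± 0.61 for Slc2a3, 1.33 ± 0.28 for Loxl2 and 0.88 ± 0.44 for Stc1, and those below it were -1.28 ± 0.39 for Ldhb, -1.22 ± 0.24 for Bpgm and -0.96 ± 0.28 for Nupr1.

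**Figure D5:**
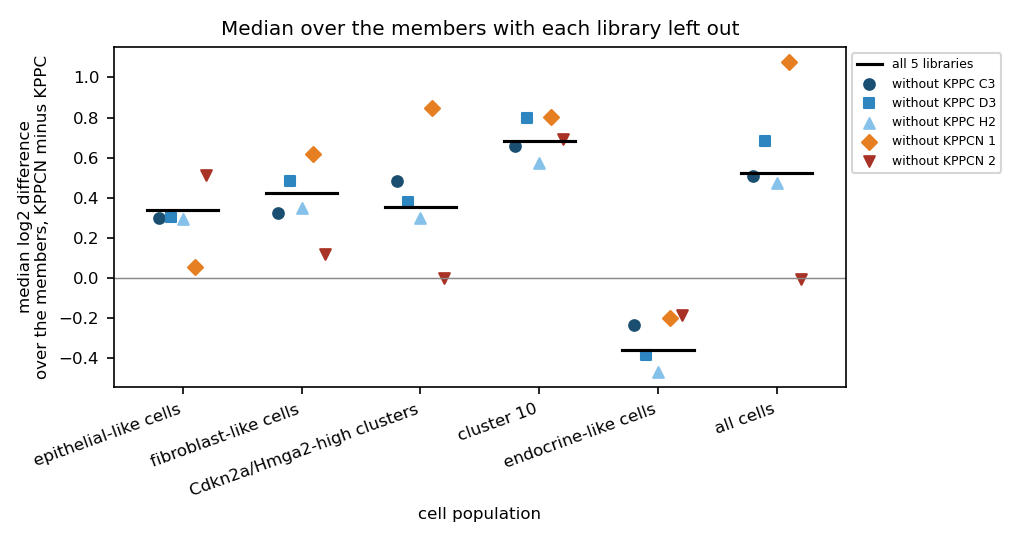
Median log2 difference over the members (vertical axis, KPPCN minus KPPC) in 6 populations (horizontal axis), with a bar for all 5 libraries and a point for each fit without 1 library. In cluster 10 the points stay between 0.58 and 0.80, whereas without KPPCN 2 the Cdkn2a/Hmga2-high clusters and all cells are at 0 to 2 decimals, and without KPPCN 1 the epithelial-like cells are at 0.053.

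Populations with 20 cells in a single KPPCN library have values and no test. In cluster 11, KPPCN 2 summed to 27256 CPM, within the KPPC range, although 25 of 37 members were above and 6 below that range (33.2% and 29.9% of all genes). In mesothelial-like cells KPPCN 2 gave 8792 CPM against 5871 to 7415 in KPPC, with 27 members above and 4 below (30.6% and 40.7%), on 21 cells. In endothelial-like cells it gave 8033 CPM, within the KPPC range of 6515 to 8212, with 19 of 36 members above and 4 below (36.9% and 31.9%). Cluster 16 in KPPCN 1, on 20 cells, gave 15331 CPM against 9708 to 12864, and cluster 9, on 32 cells, gave 7904 against 5659 to 7228.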

How the data were processed

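Cells of 5 libraries were read from 2 tables that the authors deposited, 1 per genotype, with values on a natural log scale; per the submitters' processing notes they used Cell Ranger 2.1.0, GRCm38, R 3.5.1 and Seurat 3.0.2. Each deposited value was the natural log of 1 plus UMIs per 10000 in the cell, as the values themselves show, and whole UMIs came back from each cell's smallest step within 0.01 UMI. The tables share 12579 genes, which held 99.34% of KPPCN UMIs. Barcodes with under 500 genes or over 20% mitochondrial UMIs were left out (801 of 17771), as were 160 doublets (0.943%) with a score over 0.25 in scanpy's Scrublet, leaving 16810 cells with 27254162 to 79351324 UMIs per library. The libraries shared 0 to 6 barcodes per pair.

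Cells were clustered with scanpy 1.11.5 (2000 variable genes without 87 pathway genes, 30 components, 20 neighbours, Leiden on igraph 0.11.9) into 28 clusters at resolution 1 and named from marker lists; the naming rule and the Cdkn2a/Hmga2-high class, by rank among the first 20 genes of a cluster, were set after clusters had been seen. UMIs were summed per library and population of at least 20 cells. limma 3.58.1 in R 4.3.3 was fitted to log2(CPM + 5) with trimmed-mean scaling, precision weights and a trend, over genes with at least 15 UMIs in all and, in at least 2 libraries, the CPM of 10 UMIs in a library of median total. Scripts ran in Python 3.11.15 with numpy 2.4.6 and pandas 2.3.3 and were tested on simulated data. The recovered UMI sums were tested on this log scale, and no count model was fitted.

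Members, gene lists and populations were chosen with earlier results of these data known. Members named with values had a log2 difference of at least 0.5 in size and groups that did not overlap; others are singled out after their values were seen. The alternatives were other normalizations, an added 1 CPM, no filter on low counts, thinning to 1000 UMIs, other clusterings and leaving out each library. The p-values rest on libraries taken as 1 tumour each and measure only the spread between them. Some genes are not reported here.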

Additional observations from a re-analysis of the deposited data

Results flagged for a closer look

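The table of the KPPCN libraries listed pathway genes that the KPPC table did not list, so they entered no comparison. Pfkfb1, a further kinase acting on phosphofructokinase, had 104 UMIs over the KPPCN libraries, 39 in KPPCN 1 and 65 in KPPCN 2. Pdk4, a pyruvate dehydrogenase kinase, had 115 UMIs, 8 and 107. Ppp1r3c, a glycogen-targeting phosphatase subunit, had 127 UMIs, 42 and 85. Genes listed for KPPC were each seen in at least 37 cells, whereas the KPPCN listing kept 9554 genes seen in no cell. A gene missing for KPPC therefore need not have had a count of 0, and no KPPC value stands beside these counts.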

How the results depend on the processing

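Outside leaving out a library, 55 of 56 medians over the members moved by less than the replicate spread. Of 583 values of named members, 581 kept their direction and, in the populations tested, their side of the threshold. The exceptions came with each cell thinned to 1000 UMIs. There the epithelial-like median was -0.27, and epithelial-like Bnip3 and P4ha1 reversed to -0.58 and -0.42. The cause was not tested. In the populations described without a test, the values had no side of the threshold to change. Named members had been chosen in these data for large differences and groups that did not overlap. A kept direction was therefore likely in advance, and the count of 581 says little about robustness. With limma, thinned counts gave 92 genes called in epithelial-like cells, 1 in fibroblast-like cells, 73 over all cells, none of them members, and 6 in the test between epithelial-like and fibroblast-like cells. Over all cells, a minimum of 1000 genes per cell left 1 gene called, and leaving out leukocytes and erythroid cells, an alternative chosen after seeing the data, left 0.

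Leaving out 1 library at a time gave medians over the members of 0.053 (without KPPCN 1) to 0.51 (without KPPCN 2) in epithelial-like cells, 0.12 to 0.62 in fibroblast-like cells, -0.0014 (without KPPCN 2) to 0.85 (without KPPCN 1) in Cdkn2a/Hmga2-high clusters, 0.58 to 0.80 in cluster 10, -0.47 to -0.19 in endocrine-like cells and -0.0048 (without KPPCN 2) to 1.08 (without KPPCN 1) over all cells. Genes called ran from 0 to 3 in epithelial-like cells, from 0 to 25 (without KPPC C3) in fibroblast-like cells, from 0 to 66 (without KPPCN 1) in Cdkn2a/Hmga2-high clusters, from 0 to 3268 (without KPPCN 1) over all cells and from 0 to 7 (without KPPCN 1) in the test between classes. Members called ran from 0 to 3 in Cdkn2a/Hmga2-high clusters and from 0 to 22 over all cells, each highest without KPPCN 1. A lone KPPCN library is assumed to vary like the others. No paired analysis was possible because the library codes carry no replicate number shared between the genotypes. Epithelial-like cells of KPPCN (41 and 26) and the depth of KPPCN 1 limit what could be detected.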
